A study of Mus musculus with 12 samples.

Results

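Bleomycin was compared with phosphate-buffered saline (PBS) in whole mouse lung while every animal also received NVP-BHG712, an inhibitor of the receptor EphB4. The comparison held 6 of the 12 single-nucleus libraries of the study, the 3 titled Bleo_NVP-BHG712 and the 3 titled PBS_NVP-BHG712. All barcodes with 200 to 6000 genes and at most 5% of UMIs (unique molecular identifiers, each counting 1 captured transcript) from mitochondrial genes were kept, 17385 of the 47319 that passed in all 12 libraries: 12472 in PBS_NVP-BHG712 and 4913 in Bleo_NVP-BHG712. The UMIs of these barcodes were summed within each library, so that 1 mouse gave 1 value per gene. The mice were wild-type C57BL/6J animals, 7 weeks old when bleomycin or PBS was instilled into the trachea. NVP-BHG712 was given by mouth once a day for 5 days from day 5, so it was not aimed at 1 cell type, and the lungs were frozen on day 14. Nuclei were released from the frozen lung and sorted on the DNA dye DAPI. The other 6 libraries, 3 PBS_Vehicle and 3 Bleo_Vehicle, came from mice dosed with the solvent alone, a mix of N-methyl-2-pyrrolidone and polyethylene glycol, and gave the bleomycin difference without the inhibitor.

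Bleomycin breaks DNA strands and injures the alveolar epithelium and the capillaries, after which monocyte-derived macrophages enter the lung and fibroblasts lay down collagen, elastin and other matrix. EphB4 is a receptor tyrosine kinase best known from veins. Its membrane-bound ligand ephrin-B2 marks arteries, and the pair signals in both directions where cells touch. NVP-BHG712 blocks the kinase, which need not alter the amount of its mRNA. The comparison asked which genes and cell types differed with bleomycin when EphB4 was inhibited, and whether that difference departed from the one under vehicle.

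The libraries did not group by treatment alone. The kept UMIs ran from 5884915 to 34709663 in PBS_NVP-BHG712 and from 3543536 to 7023763 in Bleo_NVP-BHG712, with medians of 2076.5 to 3371.5 and 1715 to 2105 UMIs per nucleus. The biological coefficient of variation (BCV) between libraries, the part of their difference left after counting noise, was 0.0479 to 0.243 over the 9 pairs of a PBS_NVP-BHG712 and a Bleo_NVP-BHG712 library, against 0.169 to 0.230 among the 3 PBS_NVP-BHG712 libraries and 0.0673 to 0.150 among the 3 Bleo_NVP-BHG712 libraries. By profile, a split chosen after the values were seen, the 9 libraries other than Bleo_Vehicle formed 3 sets that cut across treatment. The first held replicate 1 of PBS_Vehicle and of PBS_NVP-BHG712, the second held replicate 2 of PBS_Vehicle, PBS_NVP-BHG712 and Bleo_NVP-BHG712, and the third held the rest. Pairs within a set had a BCV of 0.0463 to 0.0966 (10 pairs) and pairs from different sets 0.147 to 0.246 (26 pairs). The sets were cut from the correlation of these same profiles, which favours that gap.

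Examples of genes that differed between the sets are Fkbp5, Zbtb16 and Arntl, which were not tested. Fkbp5, a glucocorticoid-induced co-chaperone, stood at 161, 337 and 57 CPM in PBS_NVP-BHG712 and 55, 319 and 50.4 CPM in Bleo_NVP-BHG712, where CPM are UMI counts scaled to a common library size after TMM normalisation and libraries are given in replicate order throughout. Both replicates 2 were high and the libraries of the third set low. Zbtb16, also induced by glucocorticoids, stood at 737, 1481 and 242 CPM in PBS_NVP-BHG712 and 283, 1490.3 and 267 CPM in Bleo_NVP-BHG712, again high in both replicates 2. The clock gene Arntl, chosen like Fkbp5 after the values were seen, stood at 72.7, 25.4 and 27.2 CPM in PBS_NVP-BHG712 and 26, 23.8 and 27.4 CPM in Bleo_NVP-BHG712, with replicate 1 of PBS_NVP-BHG712 above the other 5. The run number in the labels was 1, 2 and 3 for the PBS_NVP-BHG712 replicates and 4 for all Bleo_NVP-BHG712 replicates, so run and bleomycin cannot be told apart. The PBS_Vehicle replicates had run numbers 1, 2 and 2, while the Bleo_Vehicle replicates carried batch numbers 6, 6 and 7 in place of a run number, so the vehicle difference, and with it every interaction, cannot be told apart from that label either. PBS_NVP-BHG712 replicate 3 and Bleo_NVP-BHG712 replicate 1 shared 10 barcodes (0.848% of the smaller library), of the 36 shared over all 15 pairs. Of these 10, 9 lay in the same cell class in both libraries, which stand on opposite sides of the comparison, against 11 in the same class over all 36. With the shared barcodes left out of both, a choice made after seeing the data, 0 genes were called. Each gene below is therefore also given within the second set (Bleo_NVP-BHG712 replicate 2 minus PBS_NVP-BHG712 replicate 2) and the third (mean of Bleo_NVP-BHG712 replicates 1 and 3 minus PBS_NVP-BHG712 replicate 3), where it matters.

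**Figure D1:**
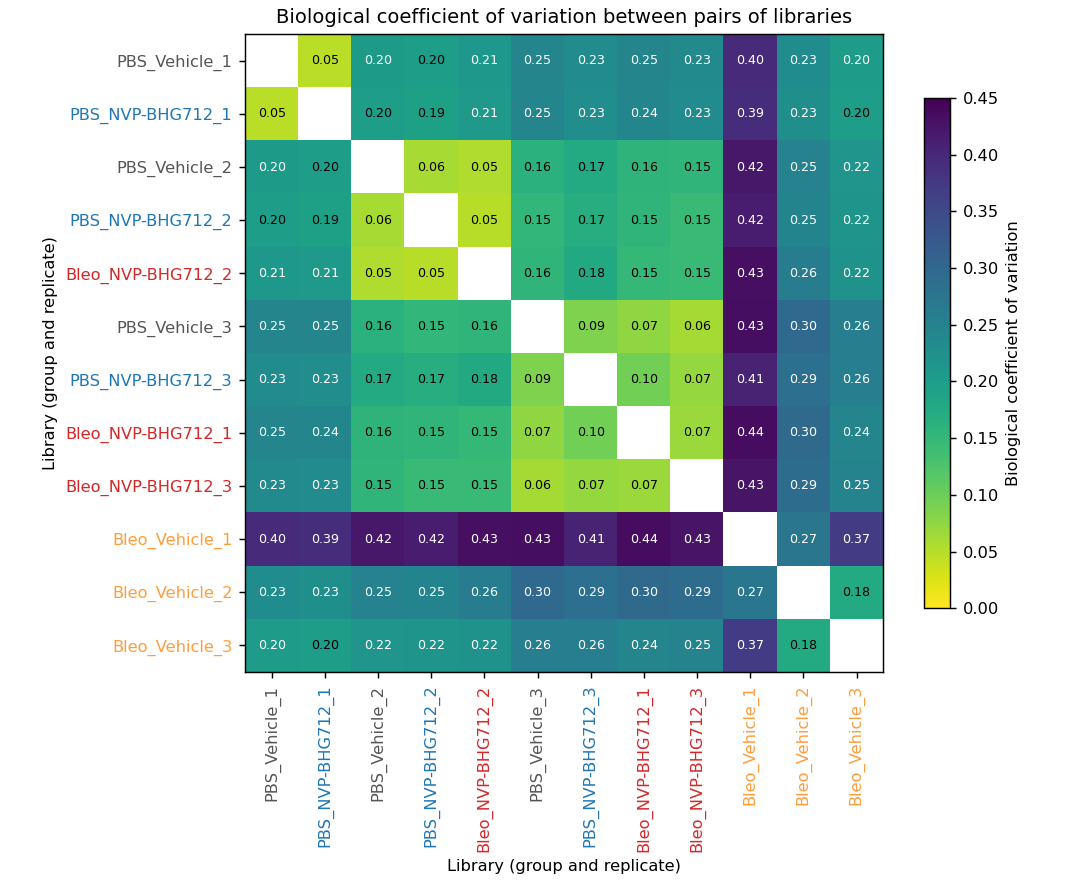
Biological coefficient of variation between pairs of libraries, by group and by set of profiles. Pairs of 1 set lie at 0.0463 to 0.0966 whatever their treatment, below the 26 pairs from different sets at 0.147 to 0.246. The sets were cut from these same profiles, which favours that gap.

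In whole lung under NVP-BHG712, 0 of 14448 genes (0%) passed an adjusted p of 0.05 between Bleo_NVP-BHG712 and PBS_NVP-BHG712 in edgeR's quasi-likelihood test with Benjamini-Hochberg adjustment. The smallest adjusted p was 0.972. An unadjusted p under 0.05 was met by 394 genes (2.73%), and DESeq2 and limma-voom also called 0, with 355 and 375 genes at an unadjusted p under 0.05. Under vehicle the same fit called 377 genes (2.61%), of which 271 (1.88%) were higher and 106 (0.734%) lower in Bleo_Vehicle than in PBS_Vehicle. Leaving out 1 library gave 38 (without PBS_Vehicle replicate 2) to 1372 (without Bleo_Vehicle replicate 3) calls under vehicle and 0 in every case under NVP-BHG712. The CPM of the groups did not overlap in 1555 genes (10.8%) under NVP-BHG712 and in 2991 (20.7%) under vehicle. The half-width of the 95% interval of the log2 difference under the inhibitor had a median of 0.595 over all genes and 0.420 over the 8361 genes averaging at least 10 CPM. In such sums, more cells of a type and more RNA per cell cannot be told apart.

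The genes that bleomycin raised under vehicle were not higher on balance under NVP-BHG712. Over the 271 genes, whose vehicle values chose them and had a median log2 difference of 1.61, the median under the inhibitor was -0.18, with quartiles of -0.49 and 0.07. In 265 of them the lowest Bleo_Vehicle library lay above all 3 Bleo_NVP-BHG712 libraries. The choice of genes high in Bleo_Vehicle favours that count, and its share over all genes was not counted. The 3 Bleo_NVP-BHG712 libraries lay above all PBS_NVP-BHG712 libraries in 8 of the 271 and below all of them in 36, beside the 10.8% without overlap among all genes. The 106 genes that were lower under vehicle had a median log2 difference of -1.08 there and 0.15 under the inhibitor.

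Apoe, Ctss, Fth1, Spp1 and Lcn2 are given as examples of these 271 genes and were chosen after their values were seen. Apoe, a lipid carrier made by macrophages, stood at 7.91, 5.72 and 8.41 CPM in PBS_NVP-BHG712 and 5.56, 4.98 and 5.43 CPM in Bleo_NVP-BHG712, with all Bleo_NVP-BHG712 libraries below all PBS_NVP-BHG712 libraries, and at 8.97, 4.69 and 7.66 CPM in PBS_Vehicle and 68.3, 61.3 and 39.3 CPM in Bleo_Vehicle. Its log2 difference under NVP-BHG712 was -0.47 (95% interval -1.11 to 0.16) against 2.95 under vehicle. The interaction, the bleomycin difference under NVP-BHG712 minus that under vehicle, was -3.43 with an adjusted p of 0.00221 (edgeR), and it was called in all 23 alternative settings. Ctss, a lysosomal protease of macrophages, stood at 47.3, 43.1 and 41.7 CPM in PBS_NVP-BHG712 and 35.4, 37.2 and 46.8 CPM in Bleo_NVP-BHG712, groups that overlap, and at 175, 139 and 108 CPM in Bleo_Vehicle. Its interaction was -1.99 (adjusted p = 0.0136), with an adjusted p of 0.0612, 0.0618 and 0.0542 without PBS_Vehicle replicate 2, Bleo_NVP-BHG712 replicate 1 and Bleo_NVP-BHG712 replicate 2. Fth1, the ferritin heavy chain that stores iron, stood at 17.8, 11.9 and 12.4 CPM in PBS_NVP-BHG712 and 10.5, 11.1 and 9.37 CPM in Bleo_NVP-BHG712 without overlap, and at 78.1, 62.5 and 45.2 CPM in Bleo_Vehicle, an interaction of -2.72 (adjusted p = 0.0136). Without PBS_Vehicle replicate 2, Bleo_NVP-BHG712 replicate 1 or Bleo_NVP-BHG712 replicate 3 the adjusted p of Fth1 was 0.0612 to 0.0649, and it was called in 18 of 23 alternative settings.

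Spp1 encodes osteopontin, a secreted protein of scar macrophages, and was rare in all but 1 group. It stood at 8.92, 4.57 and 4.71 CPM in PBS_NVP-BHG712 and 2.92, 2.93 and 4.87 CPM in Bleo_NVP-BHG712, at 8.7, 3.72 and 2.07 CPM in PBS_Vehicle and at 489, 145 and 54 CPM in Bleo_Vehicle. The 3 Bleo_Vehicle libraries lay above the other 9, and the Bleo_NVP-BHG712 libraries lay within or below the range of both PBS groups. The log2 difference under NVP-BHG712 was -0.83 (95% interval -2.63 to 0.96), and the interaction was -6.22 with an adjusted p of 0.0409. That call was lost in 13 of 23 alternative settings, 9 of them the omission of a single library, which gave an adjusted p of 0.0552 to 0.171 where it was lost. Lcn2, a siderophore-binding protein made by injured epithelium and neutrophils, stood at 1.12, 1.27 and 1.18 CPM in PBS_NVP-BHG712 and 2.05, 0.88 and 2.06 CPM in Bleo_NVP-BHG712, groups that overlap, against 15, 29.5 and 16.3 CPM in Bleo_Vehicle. Its interaction of -3.22 (adjusted p = 0.0336) was lost in 13 of 22 settings, 9 of them the omission of a single library, with an adjusted p up to 0.12 there.

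Genes that bleomycin lowered under vehicle were, likewise, not lower on balance. Scn3a, a voltage-gated sodium channel subunit, stood at 154, 192 and 199 CPM in PBS_NVP-BHG712 and 209.6, 175 and 222 CPM in Bleo_NVP-BHG712, groups that overlap. It stood at 162, 163 and 226 CPM in PBS_Vehicle and at 22.4, 32.4 and 47.1 CPM in Bleo_Vehicle. Its log2 difference under the inhibitor was 0.15 (95% interval -0.34 to 0.65), and its interaction of 2.56 (adjusted p = 0.00533) was called in all 23 alternatives. Nr1d1, the clock repressor REV-ERB alpha, stood at 39.2, 42.3 and 46.1 CPM in PBS_NVP-BHG712 and 41.8, 29.3 and 36 CPM in Bleo_NVP-BHG712 and at 5.9, 5.84 and 2.27 CPM in Bleo_Vehicle, an interaction of 2.87 (adjusted p = 0.0136). The adjusted p of Nr1d1 was 0.0520 without PBS_NVP-BHG712 replicate 2 and 0.0556 without Bleo_NVP-BHG712 replicate 1.

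The interaction was called for 47 genes (0.325%), 42 negative (0.291%) and 5 positive (0.0346%). By the naming rule, the 5 leading negative interactions were mt-Co2 (-4.61), mt-Co1 (-4.54), mt-Nd5 (-4.51), mt-Atp6 (-4.33) and mt-Co3 (-4.32), subunits of the respiratory chain and ATP synthase, and the positive ones by that rule were Nr1d1, Scn3a, Best3, a chloride channel (1.84), and Arhgap28, a GTPase-activating protein (1.40). The fifth positive call, Vmn1r12 (3.55), a vomeronasal receptor gene, lay below the 10 CPM of the rule. Spp1 (-6.22), Trem2 (-6.01) and C1qb (-5.42) had larger negative interactions but averaged under 10 CPM over the libraries under NVP-BHG712. The same held for the level of mt-Nd4l (-4.59). Arhgap28 stood at 181, 243 and 257 CPM in PBS_NVP-BHG712 and 255, 242 and 251 CPM in Bleo_NVP-BHG712, and at 92.8, 83.6 and 107 CPM in Bleo_Vehicle. Transcript mt-Co1 stood at 108, 151 and 106 CPM in PBS_NVP-BHG712 and 94.4, 133 and 91.1 CPM in Bleo_NVP-BHG712, and at 2934, 2180.3 and 1155 CPM in Bleo_Vehicle. Of the 42 negative calls, 11 were mitochondrial transcripts, 10 encoded ribosomal proteins and 21 were other genes. The mitochondrial genome supplied 0.0542% to 0.0799% of the UMIs of the 6 libraries under NVP-BHG712, 0.0480% to 0.0728% in PBS_Vehicle and 0.618% to 1.43% in Bleo_Vehicle, and the nuclear RNA Malat1 took 5.09% to 7.32% in PBS_NVP-BHG712, 7.54% to 8.28% in Bleo_NVP-BHG712 and 8.85% to 10.7% in Bleo_Vehicle. The part of cytoplasmic RNA in the 47 calls was not tested. With the mitochondrial genes left out of the libraries 5 genes were called, and leaving out 1 library gave 13 to 220, lowest without Bleo_NVP-BHG712 replicate 1 and highest without Bleo_Vehicle replicate 3.

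**Figure D2:**
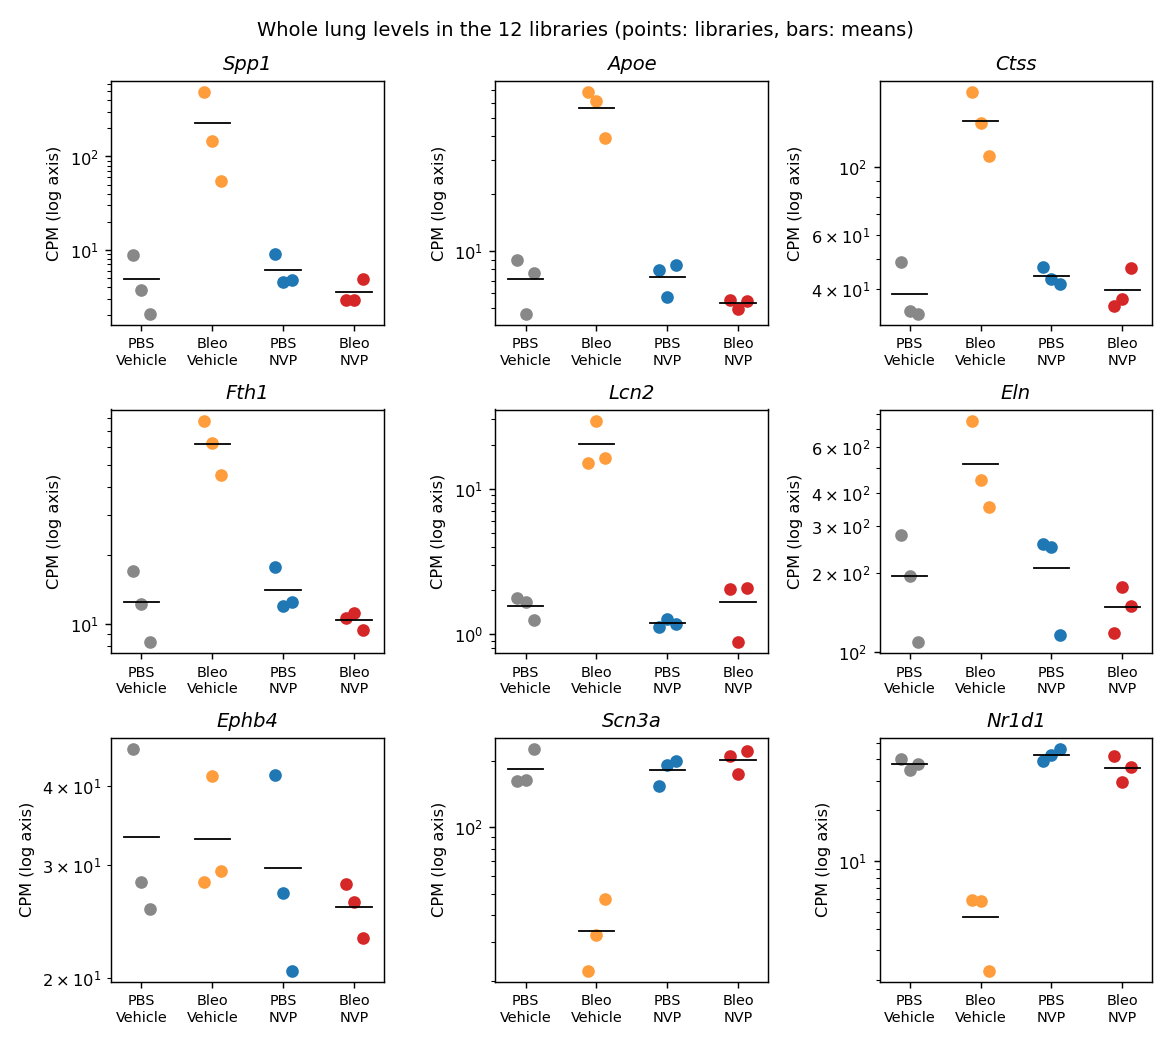
CPM (log axis) of 9 genes in the 12 libraries by group, with points for libraries and bars for group means. Spp1, Apoe, Ctss, Fth1 and Lcn2 stand high and Scn3a and Nr1d1 low in Bleo_Vehicle, while the Bleo_NVP-BHG712 points sit among or near those of the PBS groups.

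Among genes of at least 10 CPM without overlap between the groups, taken by the smallest unadjusted p, the 10 lower genes were led by an antigen-presentation gene and the 10 higher genes by a hormone receptor. None of these 20 was called (adjusted p = 0.972 each, edgeR), and since they were chosen for groups that do not overlap, their sign within the sets of libraries was fixed by that choice. H2-D1, a heavy chain of MHC class I (mm10, chr17:35262730-35267499), stood at 53.1, 41.7 and 52.1 CPM in PBS_NVP-BHG712 and 26.9, 27.6 and 32.8 CPM in Bleo_NVP-BHG712. Its log2 difference was -0.75 (95% interval -1.13 to -0.37, unadjusted p = 0.00101), and -0.60 and -0.81 within the second set and the third. Rhob, a small GTPase induced early after DNA damage and growth signals, stood at 14.2, 16.5 and 21.2 CPM in PBS_NVP-BHG712 and 9.36, 12 and 10.3 CPM in Bleo_NVP-BHG712, a log2 difference of -0.69. Under vehicle Rhob rose by 0.78 (adjusted p = 0.0442), and its interaction of -1.47 had an adjusted p of 0.0409, called in 12 of 23 alternatives and lost in 8 omissions of a single library (adjusted p 0.0613 to 0.157). Cd48, a surface ligand of immune cells, stood at 13.3, 13.7 and 16 CPM in PBS_NVP-BHG712 and 8.77, 9.09 and 11.4 CPM in Bleo_NVP-BHG712, a log2 difference of -0.54 against 1.02 under vehicle.

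The other lower genes had varied roles. Ppp1r14a, the inhibitor of smooth-muscle myosin phosphatase, stood at 16.2, 15 and 15.8 CPM in PBS_NVP-BHG712 and 6.43, 10.1 and 9.37 CPM in Bleo_NVP-BHG712, a log2 difference of -0.84, and was also lower under vehicle (-1.16, adjusted p = 0.0466). Mxra8, a matrix-remodelling membrane protein, stood at 18.9, 16.1 and 21.5 CPM in PBS_NVP-BHG712 and 7.89, 12.9 and 13.9 CPM in Bleo_NVP-BHG712, a log2 difference of -0.68. Paf1, of the transcription elongation complex named after it, had a log2 difference of -0.56. Tpra1, Tmem214, Gpr108 and Clptm1l, which encode membrane proteins, differed by -0.75, -0.80, -0.59 and -0.62.

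Calcr, the calcitonin receptor (mm10, chr6:3685680-3764714), had the largest log2 difference of the 10 higher genes. It stood at 5.81, 9.15 and 9.92 CPM in PBS_NVP-BHG712 and 19.9, 12.8 and 23.6 CPM in Bleo_NVP-BHG712, with 32.7, 14.7 and 23.8 CPM in Bleo_Vehicle. The log2 difference was 1.20 (95% interval 0.32 to 2.08, unadjusted p = 0.0114) and 0.48 and 1.12 within the sets. Ccng1, cyclin G1 and a target of p53, stood at 8.61, 8.26 and 9.08 CPM in PBS_NVP-BHG712 and 16.4, 11 and 10.7 CPM in Bleo_NVP-BHG712, a log2 difference of 0.54, and rose under vehicle by 0.95 (adjusted p = 0.0354). Among metabolic genes, the mitochondrial pyruvate carrier Mpc2 differed by 0.39, the succinate dehydrogenase assembly factor Sdhaf3 by 0.42 and the mitochondrial lyase Clybl by 0.33. The ciliary genes Togaram1 and Bbs7 differed by 0.32 and 0.42, the splicing regulator Nova1 by 0.43, the RNase H2 subunit Rnaseh2b by 0.45 and Fstl4 by 0.74.

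**Figure D3:**
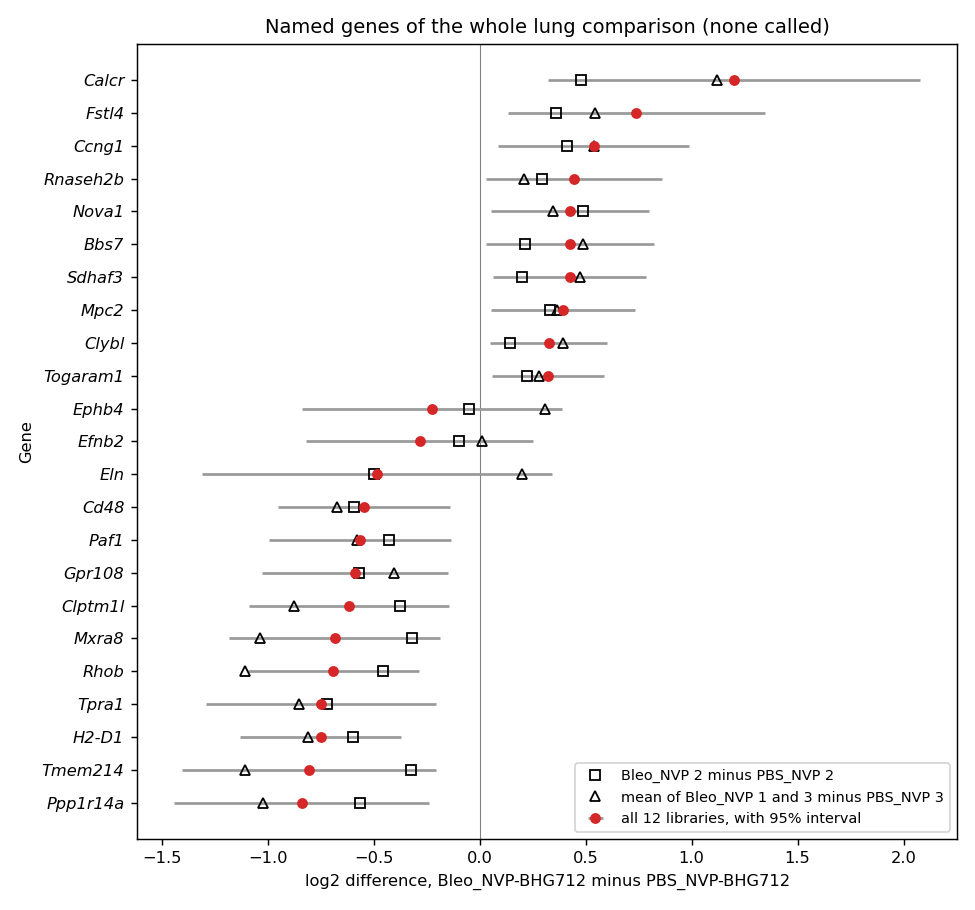
Log2 difference of Bleo_NVP-BHG712 minus PBS_NVP-BHG712 for the 20 genes and for Eln, Ephb4 and Efnb2. Circles with 95% intervals are the fit over 12 libraries, squares the second set and triangles the third. The choice of the 20 genes fixes their side of 0 in both sets. Ephb4, not chosen that way, lies at -0.23 overall and at -0.05 and 0.31 within them.

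Eln, Ephb4 and Efnb2 overlapped between the groups. Eln (mm10, chr5:134702593-134747323) encodes the precursor of elastic fibres and stood at 257, 249 and 116 CPM in PBS_NVP-BHG712 and 118, 177 and 150.1 CPM in Bleo_NVP-BHG712. The lowest of the 6 was replicate 3 of PBS_NVP-BHG712. The log2 difference was -0.48 (SE 0.38, 95% interval -1.31 to 0.34, unadjusted p = 0.227) and -0.50 and 0.20 within the sets. Under vehicle Eln stood at 279, 194 and 109 CPM in PBS_Vehicle and 754, 447 and 353 CPM in Bleo_Vehicle, a log2 difference of 1.41 with an adjusted p of 0.0775, and the interaction of -1.89 had an adjusted p of 0.179. Neither passed, although the lowest Bleo_Vehicle library lay above all other 9.

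Ephb4 (mm10, chr5:137350109-137378669) stood at 41.6, 27.2 and 20.5 CPM in PBS_NVP-BHG712 and 28.1, 26.2 and 23 CPM in Bleo_NVP-BHG712, groups that overlap. Its log2 difference of -0.23 (95% interval -0.84 to 0.39) became 0.12 without PBS_NVP-BHG712 replicate 1. Efnb2 (mm10, chr8:8617434-8661242), which encodes ephrin-B2, stood at 123, 109.7 and 74.2 CPM in PBS_NVP-BHG712 and 74.6, 102 and 75.1 CPM in Bleo_NVP-BHG712, a log2 difference of -0.28 (95% interval -0.82 to 0.25), and at -0.10 and 0.01 within the sets. Over the list of EphB receptors and ephrin-B ligands, 6 of 8 genes were tested, 0 were called and the median log2 difference was -0.14, beside -0.02 over all genes.

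No matrix gene of the lists was called. Of 26 genes of fibrillar collagens and elastic fibres, 25 were tested, 0 were called, 4 did not overlap between the groups (10.8% of all genes) and the median log2 difference was -0.20. Under vehicle the median was 0.38 with 2 called higher, beside 1.88% of all genes. Col1a1, a chain of type I collagen, stood at 25.3, 18 and 26.1 CPM in PBS_NVP-BHG712 and 18.7, 18 and 24.9 CPM in Bleo_NVP-BHG712, and at 96.8, 53.2 and 28.3 CPM in Bleo_Vehicle. Mfap2 of the microfibrils stood at 6.4, 2.92 and 2.86 CPM in PBS_NVP-BHG712 and 1.46, 2.2 and 2.81 CPM in Bleo_NVP-BHG712, without overlap and with the lowest log2 difference of the list (-0.94). Of the activated fibroblast matrix list, 23 of 27 genes were tested, 0 were called and the median was -0.00, against 0.68 with 6 called higher under vehicle. Its member Tnc, tenascin C, stood at 24.1, 87.4 and 58.5 CPM in PBS_NVP-BHG712 and 93, 45.9 and 70.3 CPM in Bleo_NVP-BHG712, groups that overlap, and at 657, 79.6 and 45.1 CPM in Bleo_Vehicle. Postn, periostin, stood at 19.1, 12.1 and 2.52 CPM in PBS_NVP-BHG712 and 3.8, 7.48 and 3 CPM in Bleo_NVP-BHG712, with replicate 3 of PBS_NVP-BHG712 lowest, and Sfrp1, a secreted Wnt modulator, at 2.18, 1.78 and 1.35 CPM in PBS_NVP-BHG712 and 0.877, 0.88 and 1.31 CPM in Bleo_NVP-BHG712. Fn1, fibronectin, stood at 132, 232 and 224 CPM in PBS_NVP-BHG712 and 206, 216 and 226 CPM in Bleo_NVP-BHG712 and at 638, 323 and 245 CPM in Bleo_Vehicle. Of the 21 genes of TGF-beta signalling and its targets 0 were called, with a median of 0.08. Smad2, a signal transducer of that pathway, stood at 109, 148 and 136 CPM in PBS_NVP-BHG712 and 152, 156 and 149 CPM in Bleo_NVP-BHG712, a log2 difference of 0.22 without overlap. Smad7, its feedback inhibitor, stood at 122, 69.8 and 61.7 CPM in PBS_NVP-BHG712 and 72.5, 67.7 and 58.3 CPM in Bleo_NVP-BHG712, groups that overlap.

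Of 26 tested genes of scar-associated macrophages, 24 lay below 0 under NVP-BHG712, beside 53.7% of all genes. Their median was -0.48 against 1.59 under vehicle, where 13 were called higher, beside 1.88% of all genes. None was called under the inhibitor, and 1 higher and 1 lower gene had an unadjusted p under 0.05. The 6 interactions called were all negative, beside negative calls in 0.291% of all genes. The summed level of the list was 864, 615 and 497 CPM of all UMIs in PBS_NVP-BHG712 and 443, 514 and 474 CPM in Bleo_NVP-BHG712, and 1676, 1042 and 1091 CPM in Bleo_Vehicle. Without PBS_NVP-BHG712 replicate 1, the highest of the 6, the median was -0.14. Trem2, a lipid receptor of macrophages, stood at 0.467, 0.508 and 1.01 CPM in PBS_NVP-BHG712 and 0, 0.293 and 0 CPM in Bleo_NVP-BHG712, with 0 UMIs in 2 libraries of Bleo_NVP-BHG712, and at 4.42, 4.2 and 3.97 CPM in Bleo_Vehicle. Mmp12, macrophage elastase, ran the other way, at 0.389, 0.762 and 0.168 CPM in PBS_NVP-BHG712 and 0.585, 1.17 and 1.87 CPM in Bleo_NVP-BHG712 (unadjusted p = 0.0363), though PBS_Vehicle stood at 2.88, 1.1 and 1.45 CPM. Cd9, a tetraspanin, stood at 216, 134 and 101 CPM in PBS_NVP-BHG712 and 90.9, 125 and 106 CPM in Bleo_NVP-BHG712, and Chil3, a chitinase-like protein of alveolar macrophages, at 148, 215 and 64.4 CPM in PBS_NVP-BHG712 and 69.3, 149 and 82.6 CPM in Bleo_NVP-BHG712. These members at the highest level overlapped between the groups.

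Genes of antigen presentation to T cells lay below 0. All 8 tested genes of MHC class II lay below 0, beside 53.7% of all genes, with a median of -0.50 (0.83 under vehicle) and 0 called. H2-DMb1, a peptide-loading chaperone, stood at 8.74, 4.45 and 4.88 CPM in PBS_NVP-BHG712 and 2.63, 3.52 and 2.81 CPM in Bleo_NVP-BHG712 (log2 difference -1.03, unadjusted p = 0.0132). Cd74, the invariant chain, stood at 20.1, 18.3 and 16.1 CPM in PBS_NVP-BHG712 and 14.6, 16.9 and 10.7 CPM in Bleo_NVP-BHG712, groups that overlap. Of 32 interferon-response genes 25 lay below 0, again beside 53.7% of all genes, with a median of -0.16 and 0 called. Xaf1 of that list stood at 11.8, 10.7 and 11.3 CPM in PBS_NVP-BHG712 and 7.6, 8.36 and 7.49 CPM in Bleo_NVP-BHG712, and Rsad2, viperin, at 1.24, 0.889 and 0.841 CPM in PBS_NVP-BHG712 and 0, 0.147 and 0.562 CPM in Bleo_NVP-BHG712. In both, every Bleo_NVP-BHG712 library was below every PBS_NVP-BHG712 library. B cells, which carry MHC class II, were 1.51, 1.21 and 0.173% of nuclei in PBS_NVP-BHG712 and 0, 1.05 and 0.252% in Bleo_NVP-BHG712, and their part in these values was not tested.

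The inflammatory cytokine Il1b had the smallest unadjusted p of any list member that was higher. It stood at 0.648, 0.254 and 0.673 CPM in PBS_NVP-BHG712 and 3.8, 1.61 and 3.37 CPM in Bleo_NVP-BHG712, from 25, 2 and 4 UMIs and 13, 11 and 18 UMIs, without overlap. The log2 difference was 2.36 (95% interval 1.18 to 3.54, unadjusted p = 0.000931, adjusted p = 0.972) and 2.39 and 2.31 within the sets. Of the 19 tested chemokines and cytokines 0 were called and the median was -0.10. Ccr2, the receptor that draws monocytes into tissue, stood at 8.43, 3.81 and 1.18 CPM in PBS_NVP-BHG712 and 1.46, 1.91 and 1.87 CPM in Bleo_NVP-BHG712, and the interleukin 1 receptor Il1r1, with overlap, at 116, 119 and 136 CPM in PBS_NVP-BHG712 and 134, 123 and 149.7 CPM in Bleo_NVP-BHG712. The platelet and neutrophil list had 4 of 14 genes tested, 0 called and a median of -0.24.

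Epithelial injury and repair genes were not higher as a group. Injured alveolar type II (AT2) cells pass through a transitional state toward type I (AT1). Of 19 tested genes of that state 12 lay below 0, near the 53.7% of all genes. The median was -0.27 (0.99 and 4 called higher under vehicle, beside 1.88% of all genes). Clu, clusterin, stood at 6.61, 5.34 and 2.52 CPM in PBS_NVP-BHG712 and 1.75, 3.37 and 4.5 CPM in Bleo_NVP-BHG712, and at 10.6, 16.5 and 16.5 CPM in Bleo_Vehicle. Of 22 p53 and DNA damage targets 0 were called, the median was -0.04 and Ccng1 was the single member with an unadjusted p under 0.05. Mdm2, the ligase that degrades p53, stood at 103, 112 and 143 CPM in PBS_NVP-BHG712 and 127, 107 and 112 CPM in Bleo_NVP-BHG712. Of 20 surfactant and lamellar body genes 0 were called, with a median of -0.02. Sftpc, surfactant protein C, stood at 281, 288 and 327 CPM in PBS_NVP-BHG712 and 356, 299 and 296 CPM in Bleo_NVP-BHG712, groups that overlap, and at 283, 1303 and 1262 CPM in Bleo_Vehicle. Scd1, a fatty acid desaturase of AT2 cells, stood at 28.5, 11.1 and 13 CPM in PBS_NVP-BHG712 and 12.3, 10.6 and 12 CPM in Bleo_NVP-BHG712, and at 34.1, 44.2 and 102 CPM in Bleo_Vehicle. The proliferation list, 22 of 32 genes tested, had 0 called and a median of -0.11.

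Capillary genes lay slightly below the median of all genes. Of 26 genes of capillary injury and angiogenesis 21 were below 0, beside 53.7% of all genes, with a median of -0.30 and 0 called. Without PBS_NVP-BHG712 replicate 1 that median was -0.02. Apln, the apelin peptide of tip cells and aerocytes, stood at 2.15, 1.02 and 1.51 CPM in PBS_NVP-BHG712 and 0, 0.586 and 0.562 CPM in Bleo_NVP-BHG712 (log2 difference -1.89, unadjusted p = 0.00969), without overlap. Sox17, an arterial transcription factor, stood at 17.7, 14.1 and 14.6 CPM in PBS_NVP-BHG712 and 9.65, 11.3 and 10.3 CPM in Bleo_NVP-BHG712, also without overlap. Vegfa, the growth factor that AT1 cells supply to capillaries, stood at 804, 600.2 and 1019 CPM in PBS_NVP-BHG712 and 817, 591 and 843 CPM in Bleo_NVP-BHG712, groups that overlap.

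Stress lists varied with the sets of libraries. The median log2 difference was -0.41 over 15 heat shock genes, -0.35 over 18 glucocorticoid genes, -0.21 over 28 immediate-early genes and 0.05 over 23 clock genes, with 0 called in each. The glucocorticoid list summed to 1753, 2639.6 and 1061 CPM of all UMIs in PBS_NVP-BHG712 and 1001, 2598 and 969 CPM in Bleo_NVP-BHG712, highest in both replicates 2. With the sets as a block, a fit chosen after the values were seen, the heat shock median was -0.07. Hspb1, a small heat shock protein, stood at 23, 4.45 and 2.02 CPM in PBS_NVP-BHG712 and 2.92, 1.91 and 0.937 CPM in Bleo_NVP-BHG712, with replicate 1 of PBS_NVP-BHG712 alone above 5 CPM. Klf4, an immediate-early transcription factor, stood at 49.9, 27.3 and 26.1 CPM in PBS_NVP-BHG712 and 18.1, 23.8 and 22.5 CPM in Bleo_NVP-BHG712, without overlap.

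The lists that mark blood, RNA quality, sex and neighbouring tissue had 0 called genes each. The 8 haemoglobin and erythroid genes, of which 4 were tested, summed to 191, 7.86 and 1.53 CPM in PBS_NVP-BHG712 and 1.13, 6.26 and 1.46 CPM in Bleo_NVP-BHG712. Hba-a1, an alpha-globin gene, stood at 40.2, 1.91 and 0 CPM in PBS_NVP-BHG712 and 0, 1.03 and 0 CPM in Bleo_NVP-BHG712, nearly all of it in 1 library, and the list median of -4.57, which rests on fitted values for libraries with 0 UMIs, became -0.80 without PBS_NVP-BHG712 replicate 1. The mitochondrial genome had a median of -0.19 over 13 genes. Under vehicle its median was 4.26 and all 13 were called higher, beside 1.88% of all genes. The sex-chromosome list had a median of 0.03, and the Y-linked Eif2s3y stood at 109, 117 and 132 CPM in PBS_NVP-BHG712 and 142, 116 and 143 CPM in Bleo_NVP-BHG712, so all 6 libraries carried Y-linked transcripts. The list of heart, thymus and nerve genes had 6 of 14 genes tested and a median of 0.08.

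**Figure D4:**
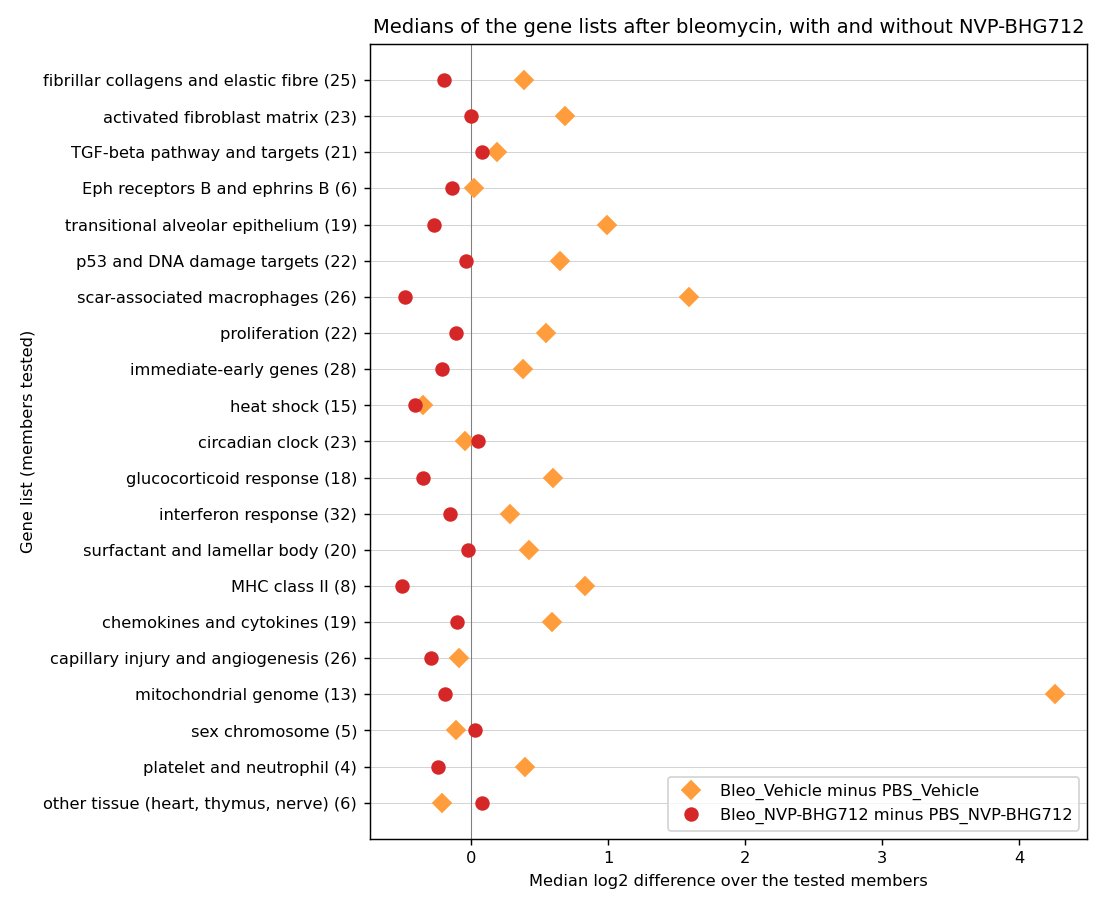
Median log2 difference of 21 gene lists under NVP-BHG712 and under vehicle, with a line at 0. The haemoglobin list, at -4.57, is left out of the plot. The scar-associated macrophage list lies at -0.48 under the inhibitor and at 1.59 under vehicle, and the mitochondrial genome at -0.19 and 4.26.

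The make-up of the lung was then compared over 19 cell classes, rebuilt here by clustering and named from marker genes, after predicted doublets were left out. The 6 libraries gave 16664 nuclei. No class separated the groups (0 of 19 without overlap, 0%), and the smallest exact permutation p was 0.2, where 3 against 3 libraries cannot go below 0.1. Shares rest on DAPI-sorted nuclei at unequal depth. Fibroblasts were 23.2% ± 2.11 in PBS_NVP-BHG712 and 24.9% ± 3.39 in Bleo_NVP-BHG712 (SD, n = 3 each). General capillary endothelium was 12.3% ± 3.11 in PBS_NVP-BHG712 and 10.3% ± 1.82 in Bleo_NVP-BHG712, the lowest difference of the 19 at -2.0 points, with overlap. AT1 nuclei were 12.5% ± 2.3 in PBS_NVP-BHG712 and 12.2% ± 2.37 in Bleo_NVP-BHG712, and AT2 nuclei 9.5% ± 2.2 in PBS_NVP-BHG712 and 11.1% ± 2.53 in Bleo_NVP-BHG712.

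Interstitial macrophages or monocytes were 1.62, 4.2 and 1.85% of nuclei in PBS_NVP-BHG712 and 1.63, 3.11 and 1.95% in Bleo_NVP-BHG712, against 9.14, 6.38 and 5.98% in Bleo_Vehicle. The 3 Bleo_Vehicle libraries lay above all 6 libraries under the inhibitor. Alveolar macrophages were 7.01% ± 0.927 in PBS_NVP-BHG712 and 6.59% ± 0.725 in Bleo_NVP-BHG712. A cluster of 1337 nuclei with 10 of 11 AT1 markers above 2-fold was led by the predicted gene Gm26870 and left unnamed, at 1.09, 1.35 and 2.43% in PBS_NVP-BHG712 and 4.62, 1.96 and 2.08% in Bleo_NVP-BHG712. Venous endothelium, with the highest Ephb4 level of the classes tested, was 2.9% ± 0.763 in PBS_NVP-BHG712 and 2.66% ± 0.821 in Bleo_NVP-BHG712, and arterial endothelium, with the highest Efnb2 level, 2.04% ± 0.182 in PBS_NVP-BHG712 and 1.6% ± 0.424 in Bleo_NVP-BHG712 (exact permutation p = 0.2, SD over 3 libraries).

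**Figure D5:**
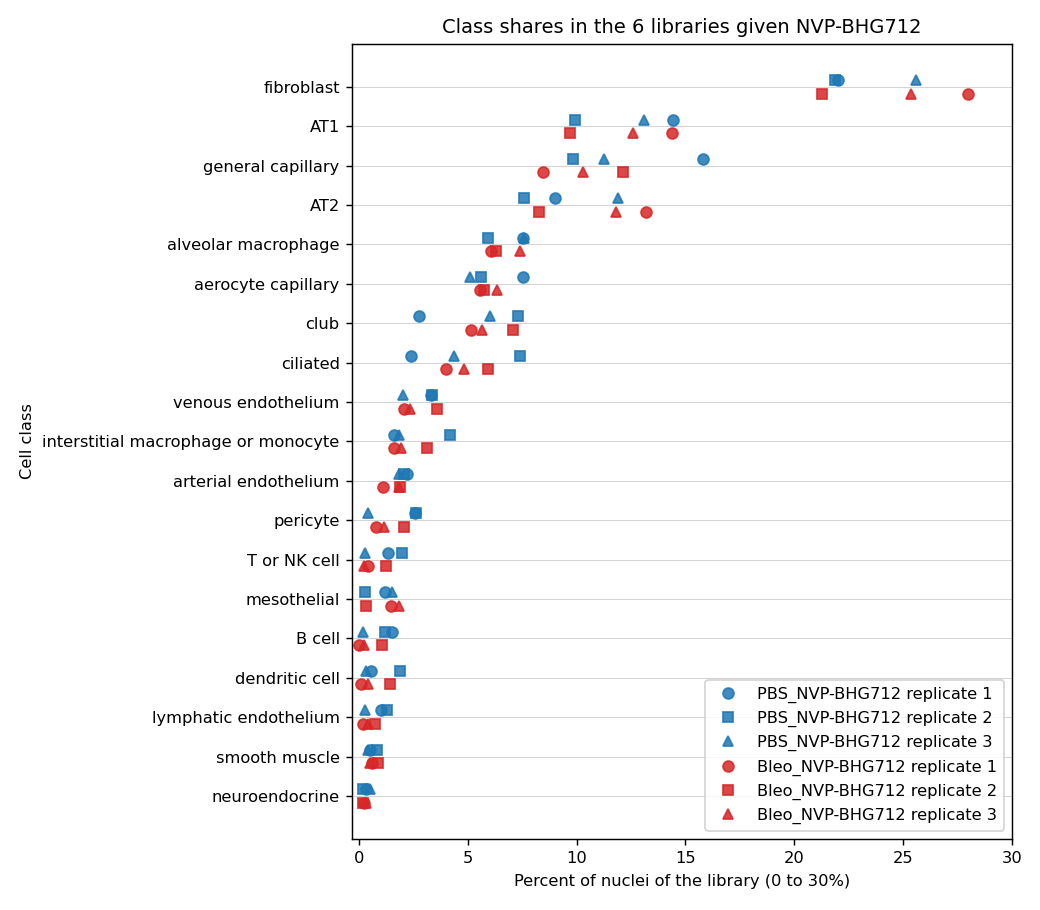
Share of nuclei (percent) in 19 classes in the 6 libraries under NVP-BHG712. Points are libraries, with marker shapes for the replicates. The points of Bleo_NVP-BHG712 and PBS_NVP-BHG712 overlap in every class.

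Within cell classes, 11 could be tested and 0 genes (0%) were called between Bleo_NVP-BHG712 and PBS_NVP-BHG712 in each (edgeR). Between 84 and 303 genes per class (2.35% to 4.37%) had an unadjusted p under 0.05, and the smallest adjusted p was 0.842. The share of genes without overlap was 9.48% in venous endothelium, 9.49% in club, 9.56% in general capillary nuclei and in alveolar macrophages, 9.66% in AT2, 10.2% in fibroblasts, 10.3% in aerocytes, 10.4% in ciliated and 10.6% in AT1 nuclei. It was 15.9% in interstitial macrophages and 20.4% in arterial endothelium, where Bleo_NVP-BHG712 replicate 1 had under 20 nuclei and was left out of both. In fibroblasts Eln stood at 712, 624 and 255 CPM in PBS_NVP-BHG712 and 269, 427 and 368 CPM in Bleo_NVP-BHG712, a log2 difference of -0.58 (unadjusted p = 0.27), with overlap. In venous endothelium Eln stood at 1466, 532 and 213 CPM in PBS_NVP-BHG712 and 542, 693 and 339 CPM in Bleo_NVP-BHG712. Ephb4 stood in venous endothelium at 394, 274 and 233 CPM in PBS_NVP-BHG712 and 263, 301 and 292 CPM in Bleo_NVP-BHG712, also with overlap. In general capillary nuclei Ephb4 stood at 223, 143 and 147 CPM in PBS_NVP-BHG712 and 192, 147 and 131 CPM in Bleo_NVP-BHG712, and in fibroblasts at 16.4, 14.2 and 13.5 CPM in PBS_NVP-BHG712 and 15.6, 11.9 and 15.3 CPM in Bleo_NVP-BHG712. Efnb2 in arterial endothelium stood at 2018, 2192 and 1956 CPM in PBS_NVP-BHG712 and at 2117 and 2082 CPM in replicates 2 and 3 of Bleo_NVP-BHG712. Efnb2 in ciliated nuclei was lower without overlap, at 50.9, 59.5 and 52.1 CPM in PBS_NVP-BHG712 and 21.2, 19.4 and 10.7 CPM in Bleo_NVP-BHG712 (unadjusted p = 0.00383, adjusted p = 0.999).

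In each class, 1 higher and 1 lower gene were taken by the smallest unadjusted p among genes without overlap. In ciliated nuclei Scgb1a1, the secretoglobin of club cells, stood at 1176, 640.2 and 417 CPM in PBS_NVP-BHG712 and 84.7, 258 and 234 CPM in Bleo_NVP-BHG712, a log2 difference of -1.93 (unadjusted p = 0.000612). In club nuclei, its own cells, it stood at 4708, 2746 and 2458 CPM in PBS_NVP-BHG712 and 2504, 2545 and 3451 CPM in Bleo_NVP-BHG712, with overlap, and it had UMIs in all 11 classes with PBS_NVP-BHG712 replicate 1 highest in each. The part of free RNA in the ciliated value was not tested. In venous endothelium Pcdh7, a protocadherin, stood at 803, 875 and 485 CPM in PBS_NVP-BHG712 and 1825, 1260.5 and 1739 CPM in Bleo_NVP-BHG712, a log2 difference of 1.10 (unadjusted p = 0.000286). In AT2 nuclei Adam10, a membrane sheddase, stood at 161, 167 and 205 CPM in PBS_NVP-BHG712 and 314, 272 and 265 CPM in Bleo_NVP-BHG712, a log2 difference of 0.69. The partners of these genes in the other direction were Rybp (1.10), St3gal1 (-1.30) and Alkbh3 (-1.68).

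Socs6, a cytokine signalling suppressor, differed by 0.86 in AT1 nuclei and Camkk2, a calcium-dependent kinase, by -1.09. Slc9a3r2, a scaffold of membrane transporters, differed by -1.45 in aerocytes and Lclat1, a phospholipid acyltransferase, by 1.17. In fibroblasts Ugcg, glucosylceramide synthase, differed by 0.58 and Rcan1, a calcineurin inhibitor, by -0.67. In alveolar macrophages Atg10 of the autophagy machinery differed by 0.64 and Strn4 by -1.29. General capillary nuclei were led by Mipol1 (0.93) and Atxn7l3b (-3.25), and arterial nuclei by Rufy3 (1.51) and Nck2 (-1.87). Club nuclei were led by C2cd2 (1.22) and Nap1l4 (-1.03), and interstitial macrophages by Chmp3 (1.56) and Fxyd5 (-2.85).

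With the 3 sets as a block, a fit over 9 libraries chosen after the values were seen, 8 class genes were called. Among them, in fibroblasts, were Tmeff2 (-1.12), Dusp1 (-0.57) and Neat1 (-0.37), in AT1 nuclei Gpc5 (-2.34), Fgf13 (-0.75) and Magi2 (-2.25), and in ciliated nuclei Scgb1a1 (-1.31), each of these lower in Bleo_NVP-BHG712. Tmeff2 stood at 28.6, 76.3 and 55.8 CPM in PBS_NVP-BHG712 and 16.6, 36.1 and 26.6 CPM in Bleo_NVP-BHG712 in fibroblasts and at 1798, 2315 and 2191 CPM in PBS_NVP-BHG712 and 2056, 2419.5 and 2514 CPM in Bleo_NVP-BHG712 in aerocytes, where its level was higher in every library. Dusp1, an immediate-early phosphatase, stood at 162, 124 and 268 CPM in PBS_NVP-BHG712 and 168, 83.6 and 164 CPM in Bleo_NVP-BHG712 in fibroblasts, with overlap. The AT1 genes also overlapped between the groups. There Gpc5 stood at 1.34, 1.91 and 43.4 CPM in PBS_NVP-BHG712 and 4.32, 0 and 14.2 CPM in Bleo_NVP-BHG712. Fgf13 stood at 55.3, 145 and 85.7 CPM in PBS_NVP-BHG712 and 69.1, 72.1 and 50.7 CPM in Bleo_NVP-BHG712. Magi2 stood at 4.97, 65.6 and 26.3 CPM in PBS_NVP-BHG712 and 7.55, 12.4 and 6.18 CPM in Bleo_NVP-BHG712. Without Bleo_NVP-BHG712 replicate 2, Mast4 was called in venous endothelium at 2.24 (adjusted p = 0.00142, edgeR), from 198, 212 and 174 CPM in PBS_NVP-BHG712 and 575, 217 and 1293 CPM in Bleo_NVP-BHG712 with all 6 libraries. None of these calls was made by the fit without a block on all libraries.

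The interaction within classes was called 200 times over 65429 gene tests in the 11 classes, 179 negative and 21 positive. By class, calls over genes tested were 38 of 6091 in general capillary endothelium, 29 of 6122 in ciliated and 28 of 10450 in fibroblasts. They were 25 of 6956 in club, 20 of 6291 in AT2 and 20 of 3913 in venous endothelium. AT1 had 16 of 8770, aerocytes 15 of 4782 and alveolar macrophages 5 of 6174. Arterial endothelium had 4 of 2406 and interstitial macrophages 0 of 3474. The AT1 class held 2 clusters, 1 of which made up 3.45% to 4.81% of nuclei in Bleo_Vehicle and 4.94% in PBS_Vehicle replicate 2 but at most 0.171% in the other 8 libraries, so AT1 interactions compare partly different clusters. Clustering without batch correction gave 917 calls and keeping doublets 1314. Leaving out PBS_NVP-BHG712 replicate 1 gave 91 calls, and leaving out Bleo_NVP-BHG712 replicates 1, 2 or 3 gave 102, 94 and 91. Vehicle libraries were not omitted in turn from the class fits. Bleo_Vehicle replicate 1 had 19 venous and 6 arterial nuclei, under the limit of 20, and was left out of both classes. Their interactions therefore rest on Bleo_Vehicle replicates 2 and 3.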

How the data were processed

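Single-nucleus libraries (10x Genomics 3' chemistry), 1 per mouse, were given by the authors as deposited matrices of raw UMI counts per gene and barcode, made with Cell Ranger (7.2.0 in the matrix header, 7.0 in the submitters' processing notes, which also name Seurat 4.4.1) on mm10. The matrices list 31053 genes and hold barcodes the authors' pipeline called as nuclei, and 0 value columns belonged to no sample. Counts were summed per library over barcodes with 200 to 6000 genes and at most 5% mitochondrial UMIs. All 12 libraries were fitted with a mean per group in edgeR 4.0.16 (R 4.3.3; TMM factors, filterByExpr with a minimum count of 10, robust quasi-likelihood, two-sided, Benjamini-Hochberg over all genes, called at an adjusted p under 0.05). For its single-nucleus data the study compared nuclei, which are not replicates. It also scored fibrosis in lung sections per mouse. DESeq2 1.42.0, limma-voom (limma 3.58.1), other filters, thinning, blocks and omissions of libraries were alternatives.

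Classes came from 2000 variable genes, 30 principal components, Harmony across libraries, 20 neighbours and Leiden clustering at a resolution of 1, after predicted doublets (0.8% per 1000 nuclei, 2708 of 47319) were left out. A cluster was named from 27 marker lists, and classes with at least 20 nuclei in a library were summed and fitted likewise. Shares were compared with a two-sided exact permutation test. The 22 gene lists were described by counts and medians, without a test. Named genes were the 10 higher and 10 lower without overlap at 10 CPM or more with the smallest p. Named interactions were up to 5 each way at 10 CPM or more, without overlap between Bleo_NVP-BHG712 and Bleo_Vehicle. In each list the members with the smallest p and the highest level were named. Members and lists were chosen with earlier results of these data known. p-values measure the spread between libraries within groups, 1 mouse each and all of 1 strain. In PBS_NVP-BHG712 that spread also holds runs 1, 2 and 3 and the 3 profile sets. Intervals do not cover the difference in run between PBS_NVP-BHG712 and Bleo_NVP-BHG712. Scripts were tested on simulated data. Coordinates and symbols follow the mm10 annotation used here, which matched 14434 of 14448 gene identifiers. A class gene called with the sets as a block is not reported here.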

Additional observations from a re-analysis of the deposited data

Results flagged for a closer look

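The bleomycin difference under NVP-BHG712 departed from that under vehicle in 47 genes of whole lung and in 200 gene calls summed over cell classes, each by the interaction in edgeR's quasi-likelihood test. Among genes of at least 10 CPM, named by the rule, positive interactions were 1.84 for Best3, 2.87 for Nr1d1, 1.40 for Arhgap28 and 2.56 for Scn3a on the log2 scale. The fifth positive call, Vmn1r12 (3.55), lay below 10 CPM. The 5 leading of the 42 negative interactions by the same rule were -4.61 for mt-Co2, -4.54 for mt-Co1, -4.32 for mt-Co3, -4.51 for mt-Nd5 and -4.33 for mt-Atp6. Larger negative calls, Spp1 (-6.22), Trem2 (-6.01) and C1qb (-5.42), averaged under 10 CPM over the libraries under NVP-BHG712 and were not taken by the rule. Bleo_Vehicle was lower than Bleo_NVP-BHG712 in the named positive genes and higher in the named negative ones. The rule takes only genes without overlap between these groups, so their full separation in the named genes was fixed by that choice. The Bleo_Vehicle libraries carry batch numbers 6 and 7 where the other libraries carry run numbers, and this label cannot be told apart from the vehicle bleomycin difference that every interaction uses. Groups of 3 libraries are too small for the check of single libraries that stand apart.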

How the results depend on the processing

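The count of 0 genes in whole lung under NVP-BHG712 was met in all 27 alternatives, with 113 to 1052 genes at an unadjusted p under 0.05. These are 3 mice a group with run and bleomycin joined, and 0 calls do not show that no gene differed. Of the values that answer a comparison, 638 stayed within the set limits over the alternatives and 58 did not.

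Interactions in whole lung (47) were 360 with DESeq2, 15 with limma-voom, 19 in nuclei of 500 or more UMIs with 1% or less from mitochondria, 5 without mitochondrial genes and 13 to 220 with 1 library left out (13 to 19 without PBS_Vehicle replicate 2 or 3, PBS_NVP-BHG712 replicate 1 or 2, Bleo_Vehicle replicate 2 or any Bleo_NVP-BHG712 replicate, 158 without PBS_Vehicle replicate 1 and 220 without Bleo_Vehicle replicate 3). Vehicle calls (377) were 1006 with DESeq2, 221 at 10 CPM or more, 166 in those same nuclei, and 38 (without PBS_Vehicle replicate 2) to 1372 (without Bleo_Vehicle replicate 3) with 1 library left out. Class interactions (200) were 917 without batch correction, 1314 with doublets kept and 91 to 207 with 1 of the 6 NVP-BHG712 libraries left out. The replicate numbers paired the libraries under NVP-BHG712 only in part. Deviations of same-numbered libraries correlated at -0.23, 0.46 and 0.45 for replicates 1, 2 and 3, and those of differently numbered libraries at -0.66 to 0.43. With replicate number as a block the counts were 0 under NVP-BHG712, 374 interactions, 998 vehicle calls and 855 class interactions.

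Class genes under NVP-BHG712 (0) were 8 with the sets as a block, a fit chosen after seeing the data, and 0 to 1 with 1 of those 6 libraries left out. Classes without overlap (0) were 1 with doublets kept and 0 to 5 with 1 library left out, 5 without PBS_NVP-BHG712 replicate 3. The sets block gave 0.11 for Ephb4, which was -0.41 to 0.12 with 1 library left out, 0.12 without PBS_NVP-BHG712 replicate 1, and list medians of -0.11 (activated fibroblast matrix), -0.10 (scar-associated macrophages), -0.0709 (heat shock), -0.0461 (clock), -0.00325 (capillary), -0.27 (haemoglobin) and -0.0562 (sex chromosome). At 10 CPM or more the median was 0.37 for proliferation and 0.0884 for chemokines, and thinning gave -1.20 for the platelet and neutrophil list. With 1 library left out the medians ran from -0.21 to 0.0589 (activated fibroblast matrix), -0.57 to -0.14 (scar-associated macrophages), -0.42 to -0.0220 (capillary), -10.28 to -0.80 (haemoglobin), -0.0348 to 0.0787 (sex chromosome) and -0.40 to -0.10 (platelet and neutrophil). The causes were not tested.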
